A study of Mus musculus with 9 samples.

Results

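The primitive streak transcription factors described here are 9 genes, T (brachyury), Mixl1, Eomes, Gsc, Evx1, Mesp1, Tbx6, Lhx1 and Sp5. They were chosen by symbol among the 33495 genes of the count table, and each symbol matched 1 row. The table covers RNA sequencing of total RNA of RF8, a mouse embryonic stem (ES) cell line, in 9 libraries. RF8 cells carried 1 of 3 transfected genes: EGFP (a fluorescent protein, the control), wild-type Nanog (WT), or Nanog with the L122A substitution in its homeodomain (L122A). Each transfectant was grown in 3 cultures. The LIF culture was KO-DMEM with 15 % FCS, puromycin and LIF at 1000 units per ml, the no-LIF culture lacked LIF, and the RA culture lacked LIF and held 5 µM retinoic acid. Every combination was sequenced once, so no combination had a replicate library. In the count table, the column of each transfectant's LIF library carries a word that the labels do not use, and it was taken as LIF because the columns of the other cultures are named; every LIF value below rests on that assignment. The labels used here give neither the days in culture nor the promoter of the transfected genes, and they do not say whether a transfectant was a clone or a pool.

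The primitive streak is the strip of the gastrulating embryo where epiblast cells leave the epithelium and become mesoderm and endoderm. NODAL, WNT3 and BMP4 signals induce it, and WNT signals acting through beta-catenin and TCF/LEF proteins switch on T and Sp5. In ES cells, LIF sustains self-renewal. Without LIF, ES cells can pass to a primed, epiblast-like state and on to streak-like cells, and retinoic acid moves them toward other fates, including neural and extraembryonic endoderm. T, Eomes and Tbx6 are T-box factors: T is needed for posterior mesoderm and notochord, Eomes for cells to leave the streak and for definitive endoderm, and Tbx6 for paraxial mesoderm. Mixl1, Gsc and Evx1 are homeodomain factors of the streak, Gsc marking its anterior end and Evx1 its posterior part. Lhx1 is a LIM-homeodomain factor of the organizer, the visceral endoderm and the intermediate mesoderm. Mesp1 is a basic helix-loop-helix factor of nascent cardiac mesoderm, and Sp5 is a zinc finger factor and a direct WNT target.

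T and Sp5 are shown by sequence because both were high in the same 2 libraries, and Mesp1 because it was the third member whose promoter held the letters searched for TCF/LEF. The 250 bases before the start of each gene come from RefSeq (build GRCm38.p6, whereas the count table uses mm9), and 8 of the 9 members had an entry. Capitals mark CTTTGA or its reverse complement TCAAAG, 5′ to 3′ on the gene's strand, for T at chr17:8434173-8434422 (+ strand), Sp5 at chr2:70474673-70474922 (+ strand) and Mesp1 at chr7:79793591-79793840 (- strand).
T: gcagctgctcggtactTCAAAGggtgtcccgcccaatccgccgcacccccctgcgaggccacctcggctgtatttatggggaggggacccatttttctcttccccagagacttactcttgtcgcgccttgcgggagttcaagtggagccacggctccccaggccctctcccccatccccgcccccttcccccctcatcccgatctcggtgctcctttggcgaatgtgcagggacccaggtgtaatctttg
Sp5: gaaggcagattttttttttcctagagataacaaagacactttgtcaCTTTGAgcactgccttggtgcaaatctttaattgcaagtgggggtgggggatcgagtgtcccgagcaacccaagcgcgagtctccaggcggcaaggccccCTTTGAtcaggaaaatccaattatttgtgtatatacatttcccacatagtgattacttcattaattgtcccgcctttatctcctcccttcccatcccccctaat
Mesp1: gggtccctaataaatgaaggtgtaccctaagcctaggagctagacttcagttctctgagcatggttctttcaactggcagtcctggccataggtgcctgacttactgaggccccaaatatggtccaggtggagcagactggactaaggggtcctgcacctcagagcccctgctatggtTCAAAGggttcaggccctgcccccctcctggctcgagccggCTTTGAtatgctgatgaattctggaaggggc
CTTTGA was found on either strand once in T and 2 times each in Sp5 and Mesp1, that is in 3 of the 8 members, beside 13.8% of 32851 RefSeq promoters of that length. AGGTGT, a T-box half-site, was found in T, Evx1 and Mesp1 (11.8% of all). TAATGG, a NANOG motif, was found in Evx1 (6.57%), and TAATTA, a homeodomain motif, in Tbx6 (4.84%). AGGTCA, the retinoic acid receptor half-site, was in none of the 8 (14.0%). No match overlapped another. A match is only a description of these letters.

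The libraries held 24166395 to 28714988 counts. Levels are in CPM, the usual depth-normalized count unit, after scaling by trimmed mean of M-values (TMM) factors of 0.81 to 1.25, and intervals are exact 95% intervals that cover counting error only. Pou5f1, a core ES cell factor, stood between 195 and 453 CPM in the 6 libraries without retinoic acid and at 0.467, 9.22 and 70.0 CPM in the EGFP, WT and L122A libraries with it. Other ES cell markers fell in EGFP without LIF. By a fold of at least 2 with 5 CPM in the higher library, 5 of 8 were lower, beside 6.38% of genes. They were Esrrb (115 to 3.47 CPM), Klf4 (76.7 to 4.73), Zfp42 (620 to 59.2), Sox2 (85.9 to 19.8) and Dppa5a (698 to 241). In WT 1 was lower (4.59% of genes), and in L122A 1 was lower (3.16%) and 1 higher (2.94%). Nanog stood at 384, 222 and 239 CPM in the EGFP, WT and L122A libraries with LIF. In the same order it stood at 290, 168 and 130 CPM without LIF and at 0.871, 195 and 258 CPM with retinoic acid. Counted Nanog was thus highest in EGFP in both cultures without retinoic acid. These counts do not separate the cell's own Nanog from the transfected copy. In such bulk samples, fewer cells of a type and less RNA per cell cannot be told apart.

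The streak factors were at their highest in 1 library, the EGFP control cells grown without LIF. Of the 9 members, 6 (T, Mixl1, Eomes, Gsc, Mesp1 and Sp5) had their highest level there. The members summed to 170 CPM in that library, to 18.1 CPM in the EGFP LIF library, and to between 5.54 and 17.2 CPM in the other 7. T supplied most of that sum.

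**Figure D1:**
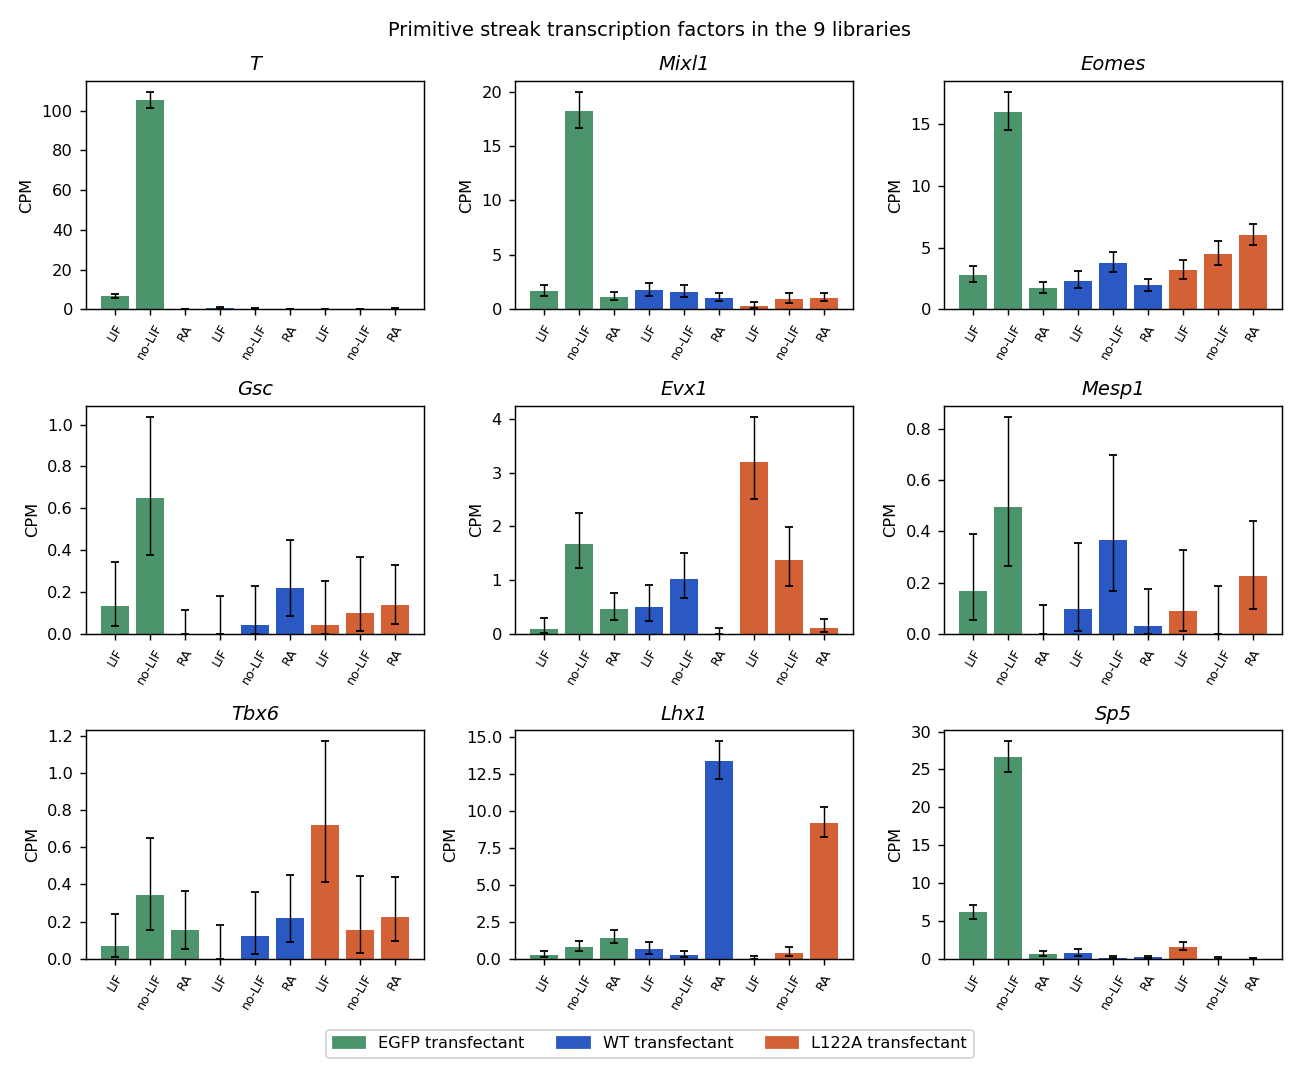
Level of each of the 9 members (TMM-scaled CPM, a panel for each gene, each with its own axis from 0) in the 9 libraries, grouped by transfectant and culture, with exact 95% Poisson intervals for counting error. The bars of T, Mixl1, Eomes and Sp5 are tallest in the EGFP no-LIF library, at 105, 18.3, 16.0 and 26.7 CPM, and those of Lhx1 in the WT and L122A RA libraries, at 13.4 and 9.20 CPM.

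T (mm9 chr17:8627288-8635361, + strand) was counted at 6.72, 105 and 0 CPM in EGFP cells with LIF, without LIF and with RA, at 0.640, 0.163 and 0.0313 CPM in the WT libraries, and at 0, 0 and 0.196 CPM in the L122A libraries. The EGFP no-LIF library thus stood far above all others, with 2764 reads, or 92.4% of all reads of T in the study. Within EGFP, the no-LIF level was 15.7 times the LIF level (13.6 to 18.2). The RA library, with 0 reads, lay 72-fold below the LIF library when set at a floor of 3 counts, with an exact lower limit of 58.0. Neither Nanog transfectant showed such a difference: the WT library went from 13 reads with LIF to 4 without, and both L122A libraries had 0 reads, with exact upper limits of 0.166 CPM with LIF and 0.187 CPM without.

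Sp5 (mm9 chr2:70312980-70315786, + strand) was, like T, high in both EGFP libraries without retinoic acid. It stood at 6.12, 26.7 and 0.622 CPM in EGFP cells with LIF, without LIF and with RA, at 0.738, 0.122 and 0.156 CPM in the WT libraries, and at 1.58, 0 and 0 CPM in the L122A libraries. Both genes were thus above 5 CPM in the EGFP LIF and no-LIF libraries and in no other. Within EGFP, the no-LIF level of Sp5 was 4.36 times the LIF level (3.70 to 5.16), and the RA level was 9.84 times lower than with LIF (6.19 to 16.5).

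Mixl1 (mm9 chr1:182623185-182627165, - strand) was high in the EGFP no-LIF library alone. It stood at 1.67, 18.3 and 1.15 CPM in the EGFP libraries, at 1.77, 1.63 and 1.06 CPM in the WT libraries and at 0.316, 0.961 and 1.07 CPM in the L122A libraries, in the order LIF, no-LIF and RA. With LIF, unlike T and Sp5, it was not higher in EGFP than in WT, with a WT over EGFP ratio of 1.06 (0.670 to 1.66), but it was 5.29 times lower in L122A than in EGFP (2.39 to 13.8). The EGFP no-LIF level was 10.9 times the LIF level (8.15 to 14.9).

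Eomes (mm9 chr9:118387330-118395250, + strand) was counted in every library at more than 1 CPM. It stood at 2.81, 16.0 and 1.71 CPM in the EGFP libraries, at 2.31, 3.75 and 1.94 CPM in the WT libraries and at 3.16, 4.50 and 6.03 CPM in the L122A libraries. EGFP no-LIF was again the highest, 5.70 times the EGFP LIF level (4.50 to 7.30). L122A RA came second. With retinoic acid, Eomes in L122A was 3.52 times its level in EGFP (2.61 to 4.83) and 3.11 times its level in WT (2.33 to 4.19).

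Cell types other than the streak also express Eomes. Of 8 trophectoderm markers, 7 had a read in the EGFP no-LIF library, and the list summed to 20.6 CPM there against 7.79 to 59.8 CPM in the other libraries. By a fold of at least 2 with 5 CPM in the higher library, 1 marker was higher in EGFP no-LIF than in EGFP LIF (Krt7, at 8.69 against 1.84 CPM) and 1 was lower (Tfap2c, at 3.66 against 26.2 CPM). Krt7, Hand1 (2.63 CPM) and Cdx2 (0.839 CPM) had their highest levels in EGFP no-LIF, the library where Eomes was highest. Krt7 came next in EGFP RA, at 7.09 CPM. Hand1 and Cdx2 came next in EGFP LIF, with 63 reads against 69 and 13 against 22. Hand1 is also on the list of nascent and presomitic mesoderm genes read below, and Cdx2 on that of WNT and beta-catenin response genes. Gata3 stood there at 4.16 CPM, Ascl2 at 0.496 CPM and Elf5 at 0.152 CPM, and Tpbpa had 0 reads in all 9 libraries. The part of this lineage in the level of Eomes was not tested.

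By the deposited fragment counts per kilobase scaled for depth (FPKM), a scale that allows genes to be ordered within a library, T came first in EGFP no-LIF at 44.4 FPKM. Sp5 followed at 12.4, Mixl1 at 7.79 and Eomes at 3.75 FPKM. The remaining 5 members were below 1 FPKM, from 0.58 for Evx1 to 0.19 for Tbx6 and Lhx1.

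Gsc, Mesp1 and Tbx6 were near the limit of counting. None reached 1 CPM in any library. Gsc (mm9 chr12:105709419-105711446) was highest in EGFP no-LIF at 0.648 CPM from 17 reads, 2.96 times the next library (1.17 to 8.45), and was at 0 to 0.219 CPM in the other 8. Mesp1 (mm9 chr7:86937127-86938674) was also highest there at 0.496 CPM from 13 reads, but its ratio to the next library, WT no-LIF, was 1.35 (0.534 to 3.58), so the order of those libraries is not resolved at this depth. Tbx6 (mm9 chr7:133924997-133929062) was highest in L122A LIF at 0.722 CPM, and its ratio to the next library, EGFP no-LIF, was 2.10 (0.875 to 5.40).

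Evx1 (mm9 chr6:52263492-52268372, + strand) had a pattern of its own. It stood at 0.10, 1.68 and 0.467 CPM in the EGFP libraries, at 0.492, 1.02 and 0 CPM in the WT libraries and at 3.20, 1.37 and 0.112 CPM in the L122A libraries. The highest library was thus L122A with LIF, 1.91 times EGFP no-LIF (1.29 to 2.85), and the WT and L122A RA libraries were among the lowest. A gene on the opposite strand, AC015583.6, overlaps Evx1 and had 24 reads in L122A LIF and 63 in EGFP no-LIF, where Evx1 had 71 and 44. Whether counting used strand is not given in the sources used here, so reads of the shared stretch cannot be told apart.

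A fold of at least 2 between a pair of libraries, with at least 5 CPM in the higher, was used to count members without replicates. From LIF to no-LIF, the 4 members T, Mixl1, Eomes and Sp5 were higher in EGFP, where 7.51% of the 10064 genes at that level were higher. Of these 4, Mixl1 and Eomes reached 5 CPM in EGFP only without LIF. In WT and in L122A no member reached 5 CPM with or without LIF, so none could pass the rule in either direction. Among genes at that level, 5.66% were higher and 4.59% lower in WT, and 2.94% and 3.16% in L122A. From LIF to RA, T and Sp5 were lower in EGFP (16.6% of genes), and from no-LIF to RA all 4 were lower (15.9%). Between transfectants without LIF, the 4 were again lower in WT than in EGFP (8.25% of genes) and in L122A than in EGFP (10.7%). With LIF, T and Sp5 were lower than in EGFP, in WT (5.18% of genes) and in L122A (5.28%). In these EGFP RA pairs and transfectant pairs, only the EGFP LIF or EGFP no-LIF library held the members counted at 5 CPM. Lower was thus the only direction in which they could pass the rule. The pairs given so far in which a member passed the rule all hold the EGFP no-LIF or EGFP LIF library, so they are not separate observations. The RA pairs that Lhx1 or Eomes passed are given with Lhx1 below.

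The sizes of these differences without LIF varied among the members. T in WT was 646 times lower than in EGFP (252 to 2372). In L122A, with 0 reads, it was 694-fold lower when set at a floor of 3 counts, with an exact lower limit of 564. Sp5 was 218 times lower in WT (74.2 to 1059) and, at the same floor, 176-fold lower in L122A, with an exact lower limit of 142. Mixl1 was 11.2 times lower in WT (8.10 to 15.9) and 19.0 times lower in L122A (12.0 to 31.8). Eomes differed least, 4.27 times lower in WT (3.40 to 5.41) and 3.56 times lower in L122A (2.82 to 4.52).

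**Figure D2:**
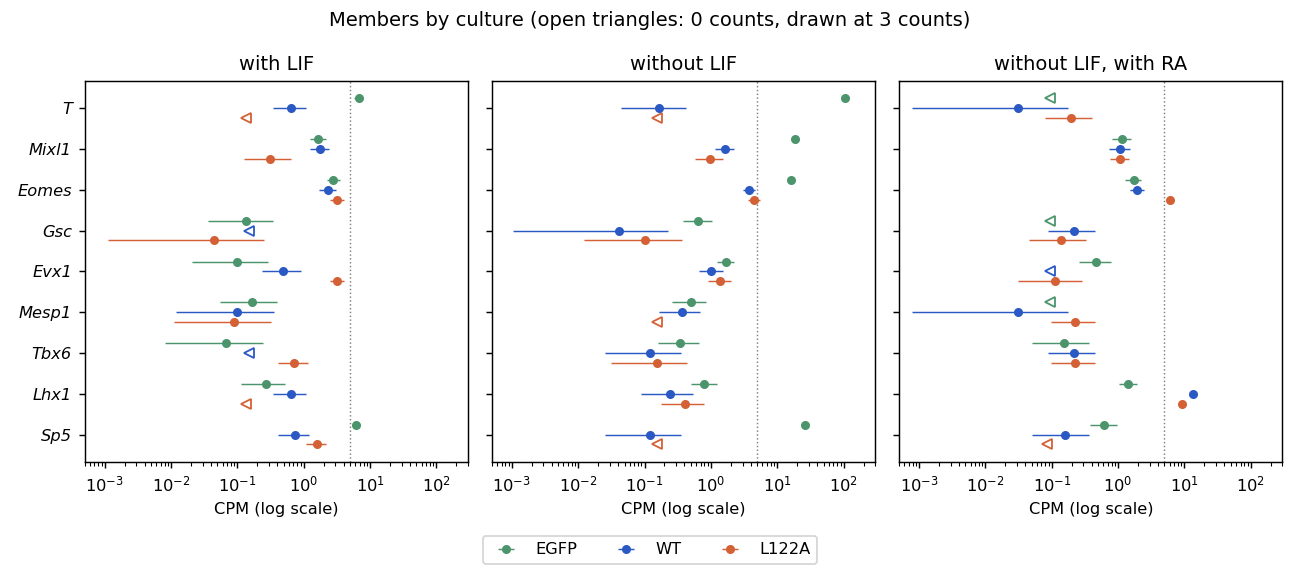
Level of each member (rows; TMM-scaled CPM, log axis) in the 3 cultures (panels), with 1 point for each transfectant and its exact 95% Poisson interval; open triangles mark 0 reads, drawn at 3 counts, and the dotted line marks 5 CPM. Without LIF the EGFP points of T, Mixl1, Eomes and Sp5 lie right of that line and no WT or L122A point does, and with RA only the WT and L122A points of Lhx1 and the L122A point of Eomes do.

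Whether a difference repeated over the other factor was tested with edgeR on all 9 libraries, in a model that adds a culture effect and a transfectant effect. The spread is then the departure from that sum, so a p asks whether an effect recurred across transfectants or cultures and not across replicate cultures. The test covered the 13996 genes that reached 1 CPM in 3 or more libraries, which kept 5 of the 9 members: Mixl1, Eomes, Evx1, Lhx1 and Sp5. T passed 1 CPM in only the EGFP LIF and no-LIF libraries and was not tested.

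No tested member passed for no-LIF against LIF, where edgeR called 0.0714% of genes; Eomes had the smallest p, with a log2 difference of 1.43 (SE 0.63, adjusted p 0.579). For WT against EGFP, 0 of 5 members and 0.322% of genes passed, with Sp5 first at -4.76 (SE 1.56, adjusted p 0.281 by edgeR). For L122A against EGFP, 0 of 5 members and 2.88% of genes passed, and the edgeR value for Sp5 was -4.80 (SE 1.53, adjusted p 0.145). Without the EGFP no-LIF library the Sp5 values were -2.34 and -2.86. Between L122A and WT, edgeR called no gene (0.0%; 614 at an unadjusted p under 0.05, and 51 by DESeq2), and Eomes was closest with 0.92 (SE 0.62, adjusted p 0.9995).

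The difference in response between the Nanog transfectants and EGFP was tested with WT and L122A as 2 libraries of 1 class. For the no-LIF response, edgeR called 0 genes (0.0%; 1117 at an unadjusted p under 0.05, and 120 by DESeq2). Sp5 had the smallest p, its log2 response being 6.16 lower in the Nanog class, -6.16 (SE 1.60, adjusted p 0.414 by edgeR and 0.0102 by DESeq2). For the RA response edgeR called 1 gene, 0.00714%, which was Nanog, and among the members Evx1 had the smallest p at -7.05 (SE 2.17, adjusted p 0.338). T entered only under looser filters: with 1 CPM in 1 library, a filter chosen after seeing the data, its no-LIF response differed by -5.72 (SE 2.00, adjusted p 0.567 by edgeR). With no filter that edgeR adjusted p was 4.17e-07, in a fit that called 403 genes in place of 0. The large differences of T, Mixl1, Eomes and Sp5 in EGFP no-LIF thus rest on 1 library, and how far they would vary between cultures was not tested.

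Lhx1 (mm9 chr11:84331479-84338923, - strand) was the member that rose with retinoic acid. It stood at 0.267, 0.801 and 1.43 CPM in the EGFP libraries, at 0.640, 0.245 and 13.4 CPM in the WT libraries and at 0, 0.405 and 9.20 CPM in the L122A libraries, in the order LIF, no-LIF and RA. In each transfectant the RA library thus had the highest level. The EGFP RA level was 1.79 times that without LIF (1.05 to 3.15), and its own interval (1.05 to 1.91 CPM) overlapped those of EGFP no-LIF and WT LIF. In RA, WT was 9.35 times EGFP (6.89 to 13.0) and L122A 6.43 times EGFP (4.71 to 8.95), and WT was 1.45 times L122A (1.26 to 1.69).

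By edgeR, Lhx1 rose in RA against LIF by 4.74 on the log2 scale (SE 1.15, adjusted p 0.0109), 1 of 5 tested members, where 24.5% of all genes were called higher. It rose in RA against no-LIF by 3.76 (SE 1.13, adjusted p 0.0280), where 22.6% were called higher. Calls with retinoic acid were thus frequent among all genes. The first call was lost without the WT RA library (adjusted p 0.0731). The second was lost without any 1 of EGFP LIF (0.0507), WT no-LIF, WT RA, L122A no-LIF or L122A RA, and with no filter (0.0666). The difference in RA response between the Nanog class and EGFP did not pass for Lhx1 (2.75, SE 1.76, adjusted p 0.580 by edgeR). That value was 8.89 without WT LIF (adjusted p 0.382) and 1.73 without L122A LIF (0.624). By the 2-fold rule, Lhx1 was higher in RA in WT (24.8% of genes against LIF, 20.9% against no-LIF) and in L122A (20.7% and 22.7%), but in EGFP it was below 5 CPM. In RA it was higher in WT than in EGFP (4.37% of genes), and Lhx1 and Eomes were higher in L122A than in EGFP (8.03%). Eomes alone was higher in L122A than in WT (3.46%). Where Lhx1 or Eomes passed, only the higher library held the gene at 5 CPM, so higher was the only direction open to it.

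Markers of extraembryonic endoderm, a lineage that expresses Lhx1, also had higher sums with RA. All 12 markers of that list had reads in every RA library, and they summed there to 263, 590 and 186 CPM (EGFP, WT and L122A) against 25.3 to 89.9 CPM in the other 6. These sums were in another order of transfectants than Lhx1, but the list medians, 3.84, 23.75 and 4.50 CPM, were in its order. Lamb1 alone stood at 146, 151 and 56.35 CPM. By edgeR, 8 of the 10 tested were called higher and 1 lower in RA against LIF, beside 24.5% and 23.8% of all genes. Of the 8, the calls of Dab2, Gata6, Lamb1 and Sox7 held without each library in turn. Gata4 was lost without WT RA, while Sox17, Foxa2 and Lama1 were lost without any 1 of the LIF and RA libraries of WT and L122A, and without further libraries for Foxa2 (5 of 9) and Lama1 (7 of 9). The lower call, Amn, held only without L122A LIF. Sox7, an endoderm and endothelial factor, ran beside Lhx1 with 1.62, 25.7 and 21.8 CPM under RA in EGFP, WT and L122A cells. Lama1 was also higher in both Nanog transfectants than in EGFP, at 20.5, 209.5 and 67.4 CPM. Gata6 (33.9, 26.9 and 8.86 CPM) and Dab2 (45.1, 61.8 and 19.65 CPM) were lowest in L122A, as Lamb1 was. Ttr, a secreted product of visceral endoderm, did not run beside Lhx1, with 0.0622, 7.91 and 0.140 CPM. Meox1, a paraxial mesoderm factor, stood at 2.43, 38.4 and 111 CPM. The 4 intermediate mesoderm and kidney markers all had reads in every RA library and summed there to 47.3, 35.7 and 7.04 CPM (EGFP, WT and L122A), against 1.94 to 11.1 CPM elsewhere. Wt1 made up most of that sum, with 41.9, 34.1 and 6.17 CPM under RA, and rose in RA against LIF (3.37, SE 0.62, adjusted p 0.00328 by edgeR). Osr1 had reads only under RA, at 1.71, 0.688 and 0.252 CPM, and Pax2 stood at 0.715, 0.0938 and 0.0841 CPM. Neural markers summed to 216, 66.7 and 53.7 CPM with RA and to between 33.2 and 87.9 CPM elsewhere, and fibroblast markers to 382, 42.4 and 14.2 CPM with RA and to between 6.54 and 27.1 CPM elsewhere. The part of these lineages in the rise of Lhx1 was not tested.

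**Figure D3:**
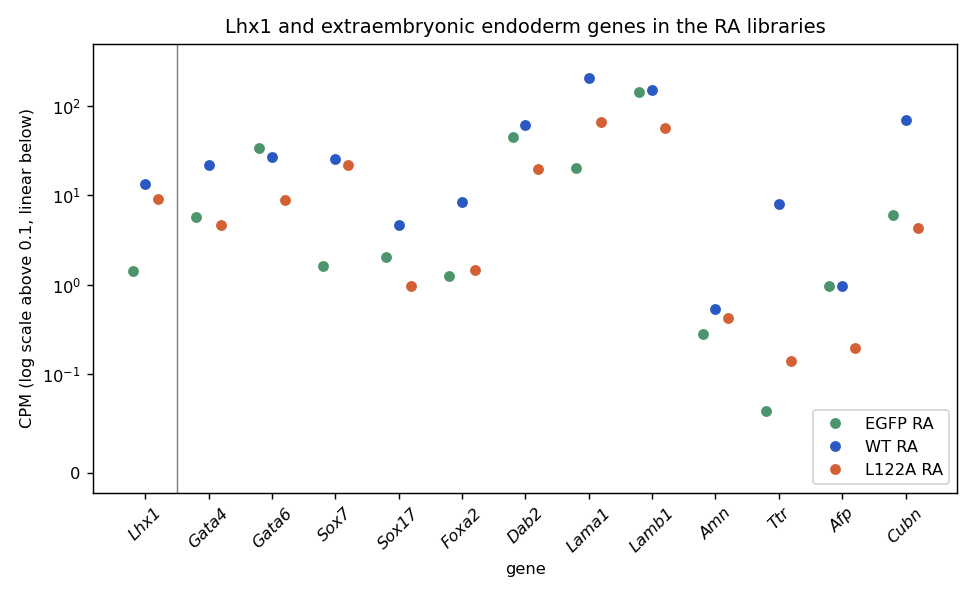
Levels of Lhx1 (left of the line) and of the 12 extraembryonic endoderm markers (TMM-scaled CPM, log axis above 0.1 and linear below) in the 3 RA libraries, 1 point a library. Lhx1, Sox7 and Lama1 are higher in both Nanog transfectants than in EGFP, whereas Gata6, Dab2 and Lamb1 are lowest in L122A. Ttr is high in WT, at 7.91 CPM, and near 0 in EGFP and L122A.

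Some of the signals that induce the streak were also high in EGFP cells without LIF. The list read for them has 13 genes and also holds the co-receptor Tdgf1 and the secreted antagonists Lefty1, Lefty2, Dkk1 and Cer1. Of the 13, 10 reached 5 CPM in at least 1 of the EGFP LIF and no-LIF libraries. From LIF to no-LIF, 4 of them were higher and 1 lower by the 2-fold rule, beside 7.51% and 6.38% of all genes. The 4 were Wnt3, Wnt8a, Fgf8 and Nodal, and the 1 lower was Fgf4, all named after their values were seen. Fgf4 went from 68.3 to 12.7 CPM, and stood at 112 and 70.2 CPM in the WT and L122A no-LIF libraries. Wnt3 went from 3.34 to 23.4 CPM, a ratio of 6.99 (5.65 to 8.73), Wnt8a from 1.44 to 14.8 CPM, and Nodal from 28.5 to 60.9 CPM. Fgf8, a growth factor of the streak, went from 0.435 to 20.1 CPM, a ratio of 46.2 (26.8 to 87.4). Of the EGFP LIF and no-LIF libraries, Wnt3, Wnt8a and Fgf8 reached 5 CPM only in no-LIF, so they could pass only as higher. In the WT and L122A no-LIF libraries, where T was at 0.163 and 0 CPM, Wnt3 was at 1.79 and 1.11 CPM, Wnt8a at 0.449 and 0.253 CPM, and Fgf8 at 0.694 and 0 CPM, while Nodal remained at 33.4 and 34.5 CPM. In EGFP RA, where T had 0 reads, Wnt3 stood at 14.9 CPM, whereas Wnt8a was at 0.0933, Fgf8 at 0 and Nodal at 0.840 CPM.

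Wnt3 was the 1 gene of this list that passed edgeR between transfectants. It fell by 2.91 on the log2 scale in WT against EGFP (SE 0.38, adjusted p 0.0281) and by 3.85 in L122A against EGFP (SE 0.40, adjusted p 0.00668), over all cultures. The first call was lost without any 1 of EGFP no-LIF, L122A no-LIF, WT LIF, WT no-LIF or WT RA (adjusted p up to 0.161), and the second without L122A no-LIF (0.0570). In RA against LIF, Wnt3 rose (2.21, SE 0.39, adjusted p 0.00274 by edgeR). Of the 10 tested genes of the list, 6 fell, where 23.8% of all genes were called lower. They were Tdgf1, Fgf4, Gdf3, Nodal and the antagonists Lefty2 and Lefty1. Tdgf1, the NODAL co-receptor, fell most, by 7.74 (SE 0.45, adjusted p 9.66e-05 by edgeR). The calls of Tdgf1, Fgf4, Lefty1 and Wnt3 held without each library in turn, whereas those of Gdf3, Lefty2 and Nodal were lost without WT LIF (highest adjusted p 0.0673, 0.117 and 0.148) and without WT RA, and those of Lefty2 and Nodal without EGFP LIF; Nodal's was also lost without WT no-LIF. The median over the 10 was -2.96, beside 0.01 over all genes. Between L122A and WT, and in either response difference between the Nanog class and EGFP, no gene of the list was called.

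Among 12 WNT and beta-catenin response genes, Sp8, a paralog of Sp5, stood at 2.24, 6.75 and 3.55 CPM in the EGFP libraries and at 0.101 to 0.612 CPM in the other 6. It fell in L122A against EGFP by 3.68 on the log2 scale (SE 0.69, adjusted p 0.0341 by edgeR), the 1 called of 8 tested; the call was lost in 7 of the 9 fits that left out 1 library, holding only without EGFP LIF or EGFP RA (adjusted p up to 0.103). Lef1, which encodes a TCF/LEF protein and is itself a WNT target, differed from Sp5: it was highest at 116 CPM in WT no-LIF, where Sp5 stood at 0.122 CPM, and stood at 19.3 CPM in EGFP no-LIF. Tcf7 was, like Lef1, highest in WT no-LIF, at 97.2 CPM, and stood at 76.9 CPM in EGFP no-LIF. Axin2, a WNT feedback inhibitor, ranged from 3.39 to 16.3 CPM, with its highest level in EGFP no-LIF. Of the 12 genes, 6 reached 5 CPM in EGFP with or without LIF. From LIF to no-LIF, 1 was higher by the 2-fold rule (Sp8) and 1 was lower (Notum, from 6.42 to 0.610 CPM). The shares over all genes were 7.51% and 6.38%.

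Later mesoderm genes were split where T was high. Of 17 nascent and presomitic mesoderm genes, 4 reached 5 CPM in EGFP with or without LIF. From LIF to no-LIF, 3 of them were higher by the 2-fold rule (Lfng, Twist1 and Rspo3, beside 7.51% of all genes) and 1 was lower (Tcf15, beside 6.38%). Twist1 went from 1.20 to 5.34 CPM, Rspo3 from 0.368 to 6.90 CPM and Tcf15 from 17.6 to 4.54 CPM, all named after their values were seen. Each of the 4 reached 5 CPM in only 1 of these libraries, so each could pass in only 1 direction. The 17 summed to 35.2 CPM in EGFP no-LIF, 33.3 CPM in EGFP LIF, and 89.1 to 154 CPM in the RA libraries. Msgn1, a presomitic mesoderm factor named after its values were seen, had 42 reads (1.60 CPM) in EGFP no-LIF, 4 in EGFP LIF and 0 in the other 7. Lfng, a Notch modifier of the segmentation clock, stood at 5.34 CPM in EGFP no-LIF and at 0.0492 to 1.40 CPM elsewhere, and fell in L122A against EGFP by 3.00 (SE 0.64, adjusted p 0.0470 by edgeR), a call lost whichever 1 library was left out (up to 0.194). By edgeR, 7 of the 14 tested rose and 2 fell in RA against LIF, beside 24.5% and 23.8% of all genes, with Foxc2 (6.12, SE 0.95, adjusted p 0.00319) and Rspo3 (5.25, SE 0.92, adjusted p 0.00265) rising most. The calls of Foxc1, Foxc2, Pdgfra, Rspo3 and Twist1 held without each library in turn. Without WT LIF or WT RA, those of Meox1, Snai1, Mesp2 and Tcf15 were lost; so were Meox1 and Mesp2 without L122A LIF, Mesp2 without L122A RA, Snai1 and Tcf15 without EGFP LIF, and Snai1 without EGFP RA or WT no-LIF. The median over the 14 was 1.53, beside 0.01 over all genes. For the 4 tested of 9 axial mesendoderm and endoderm genes, edgeR called 3 higher and 0 lower in RA against LIF, beside the same shares. They were Foxa2 and Sox17, which the extraembryonic endoderm list also holds, and Hhex, whose call was lost without L122A LIF.

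Primed epiblast genes separated the WT no-LIF library from T. Fgf5, the usual primed marker, stood at 112 CPM in EGFP no-LIF, 33.7 CPM in WT no-LIF and 1.87 CPM in L122A no-LIF. Otx2, an epiblast and forebrain factor, stood at 31.4, 139 and 9.87 CPM in the same order. In WT no-LIF, Fgf5 and Otx2 were thus both above their EGFP LIF levels of 5.22 and 23.0 CPM while T was below its own. In L122A no-LIF, both were below those levels, as T was. They were above their own L122A LIF levels of 0.0902 and 2.30 CPM, whereas T had 0 reads in both of those libraries. From LIF to no-LIF, 5 of the 5 primed genes listed were higher in WT by the 2-fold rule (5.66% of genes). In EGFP 2 of 5 were higher (7.51%), and in L122A 1 of the 2 at 5 CPM (2.94%). None was lower in any transfectant.

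**Figure D4:**
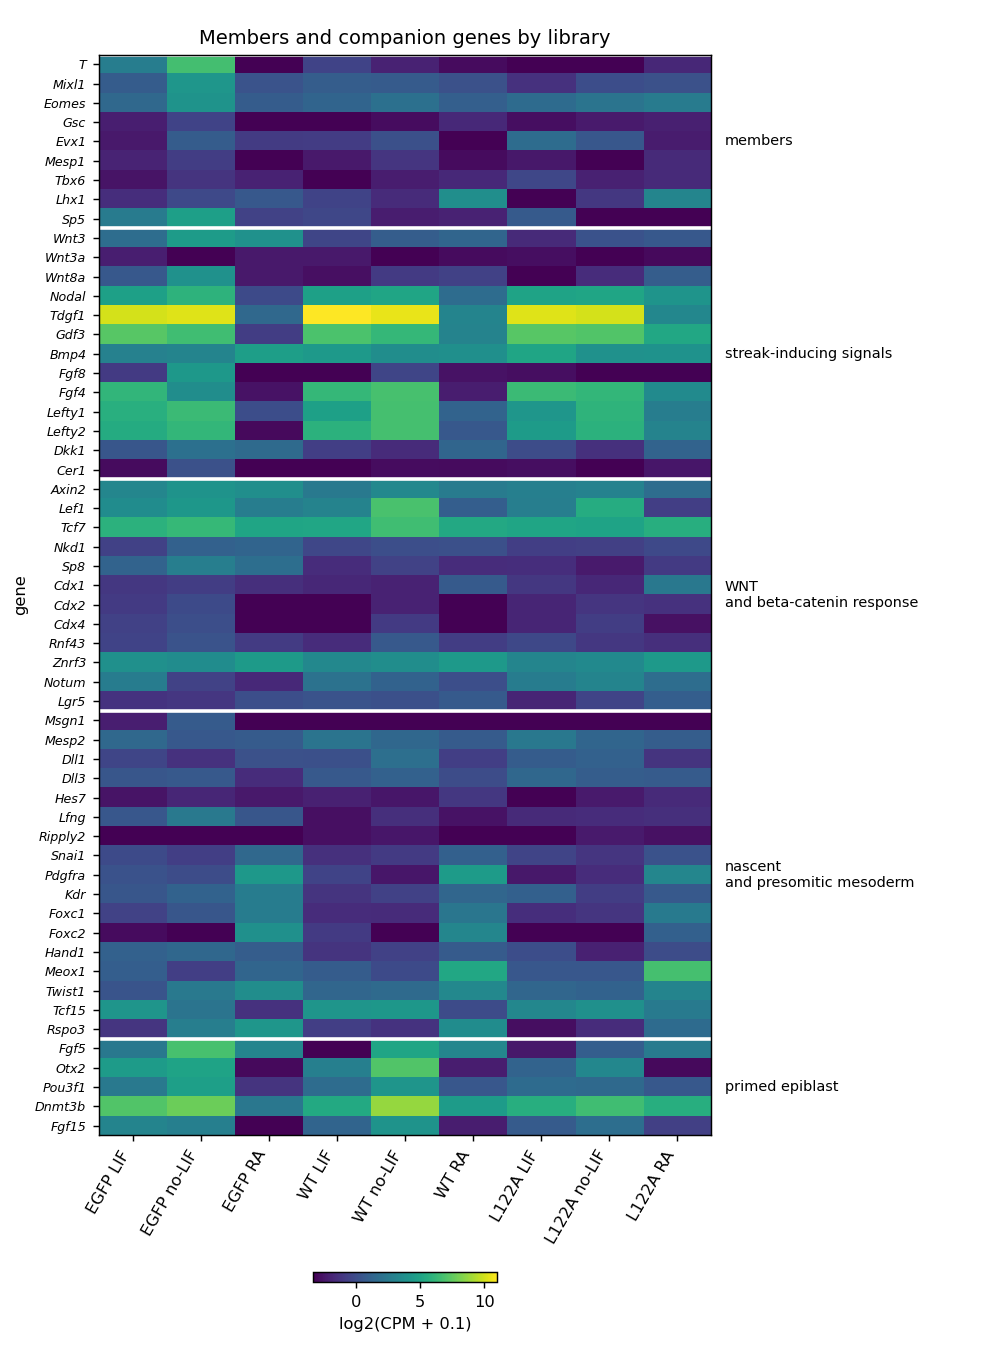
Levels of the 9 members and of companion genes in 4 groups (colour, log2 of TMM-scaled CPM plus 0.1) in the 9 libraries, with white lines between groups. Wnt3, Wnt8a and Fgf8 are bright beside T, Mixl1 and Sp5 in the EGFP no-LIF column, whereas Lef1 and Otx2 are brightest in WT no-LIF. In EGFP RA, Wnt3 stood at 14.9 CPM and T had 0 reads.

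Across the 9 libraries, the log-scale levels of T and Mixl1 had a Pearson r of 0.88 and those of T and Sp5 0.80, whereas T and Lhx1 had -0.08 and Evx1 and Lhx1 -0.77. These points share the EGFP no-LIF library and the RA cultures, and the values are descriptions. Among 11673 genes searched for the most similar pattern, the nearest to Mixl1 were Cxcl16 (0.93), the pseudogene Psme2b-ps (0.93), whose reads may be shared with its parent gene, and St14 (0.93). Cxcl16, a chemokine, stood at 33.2 CPM in EGFP no-LIF and at 2.98 to 6.35 CPM elsewhere. The nearest to Sp5 were Cpsf2, BC064078 and Hyou1 (0.94, 0.93 and 0.93), and BC064078, listed as AC159305.1, stood at 4.51, 16.3 and 0.0933 CPM in the EGFP libraries and at 0.0841 to 2.39 CPM in the other 6. The nearest to Eomes were Nudt9, Mak and Ppp3cb (0.91, 0.90 and 0.90), with Mak, a kinase, at 29.1 CPM in EGFP no-LIF and 0.746 to 5.97 CPM elsewhere. The nearest to Lhx1 were Stat5b, 1300010F03Rik and Lrrfip2 (0.96, 0.95 and 0.95), and Stat5b stood at 11.9, 23.4 and 21.1 CPM under RA in EGFP, WT and L122A cells and at 2.35 to 6.22 CPM in the others. The nearest to Evx1 were Lgals3, Ubl5 and Snap47 (0.94, 0.93 and 0.91).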

How the data were processed

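RNA was sequenced from 9 libraries, 1 for each of 3 transfectants in 3 cultures. The submitters' processing notes name TopHat2 2.0.11 and the mm9 build. Their counter, strand setting and filters were not given in the sources used here. Raw counts and FPKM per gene were deposited by the authors, per the file headers. FPKM recomputed from counts, total counts and length matched within 1% for 100.0% of genes above 5 FPKM in every library. The LIF columns carry a name that no label uses and were assigned by elimination. The members, the companion and marker lists and the tests were chosen with earlier results of these data known.

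Counts were analysed with R 4.3.3 and edgeR 4.0.16 (quasi-likelihood test, TMM factors, Benjamini-Hochberg adjustment over 13996 genes, threshold 0.05). The additive model of culture and transfectant left 4 residual degrees of freedom, and the class-by-culture model left 3. Alternatives were DESeq2 1.42.0, limma 3.58.1 on log2(FPKM + 1), RLE factors, total counts, other filters and leaving out each library. Single-library ratios used CPM with exact conditional 95% intervals, and a level of 0 was set at 3 counts. All members were named, with fold changes for those that passed and the tested member of smallest p in each comparison. From the companion lists, called genes were named, at most 2 in each direction for the largest changes, and identity markers. The 3 genes of highest correlation were named for each tested member. The edgeR fits were tested on simulated data. Protein sequences were not used here. mm9 coordinates count from 1.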

Additional observations from a re-analysis of the deposited data

How the results depend on the processing

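Each combination had 1 library, so what T, Mixl1, Eomes and Sp5 show without LIF rests on the EGFP no-LIF library, and depth limits the members below 1 CPM. No paired analysis was possible because the labels give no replicate numbers; the additive model already compares cultures within transfectants. Total counts in place of TMM shifted the median of all genes to 0.39 and 0.43 (log2) in RA against LIF and against no-LIF, and to 0.14 and 0.42 in the differences of the no-LIF and RA responses. The filter of 1 CPM in 1 library and no other alternative was chosen after seeing the data. In the tests, edgeR called 10 genes for no-LIF against LIF, DESeq2 278, limma 4, no filter 37 and total counts 2. For WT against EGFP, edgeR called 45, DESeq2 614, limma 19, no filter 138 and total counts 22. For L122A against EGFP, edgeR called 403, DESeq2 1438, limma 217 and total counts 253. For L122A against WT, edgeR called 0, DESeq2 51 and no filter 1. For the no-LIF response difference, edgeR called 0, DESeq2 120, the filter of 1 CPM in 1 library 1 and no filter 403. For the RA response difference, edgeR called 1, DESeq2 264, limma 20 and no filter 684. Counts of members moved with DESeq2 from 1 to 3 in RA against LIF (Lhx1, Evx1 and Sp5), from 1 to 2 in RA against no-LIF (Lhx1 and Evx1), from 0 to 2 in L122A against EGFP (Mixl1 and Sp5) and from 0 to 1 in the no-LIF response difference (Sp5). With no filter they moved from 1 to 0 in RA against no-LIF, from 0 to 2 in the no-LIF response difference (T and Sp5) and from 0 to 2 in the RA response difference (T and Evx1). Leaving out each library in turn gave 0 to 44 genes for no-LIF against LIF (highest without EGFP RA), 4232 to 6680 for RA against LIF and 3615 to 6314 for RA against no-LIF (both lowest without WT RA), 0 to 148 for WT against EGFP, 24 to 558 for L122A against EGFP, 0 to 24 for the no-LIF response difference and 1 to 166 for the RA response difference (both highest without WT RA). It gave 1 to 3 members for RA against LIF and 0 to 2 for RA against no-LIF. Response differences could not be estimated without an EGFP library of their own contrast. With 1 CPM in place of 5 CPM in the higher library, members past 2-fold moved to 1 higher in EGFP RA over LIF, 1 higher in WT no-LIF over LIF, 1 lower in WT RA over no-LIF, 2 lower in L122A no-LIF over LIF, 2 higher and 2 lower in L122A RA over LIF, 1 lower in L122A RA over no-LIF, 1 higher in L122A LIF over EGFP LIF, and 2 higher and 1 lower in L122A LIF over WT LIF. It also gave 5 in place of 4 members higher in EGFP no-LIF over LIF and lower in EGFP RA over no-LIF, and 3 in place of 2 lower in L122A LIF over EGFP LIF, all within 1.5 times the count given. With total counts, 2 members were higher in L122A RA over LIF and 2 in L122A RA over no-LIF. The cause of these moves was not tested. No fitted member difference printed in the report changed sign. Over all tested members and comparisons, 36 of 580 values under alternatives changed sign, 31 of them with 1 library left out, and 0 of the 36 were called by either fit; for example, Sp5 in RA against no-LIF was -3.54, and 0.42 without EGFP no-LIF.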
